A study of Mus musculus with 6 samples.

Results

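The enzymes and helper proteins that hydroxylate, fold and trim newly made collagen were followed in FAPs (fibro-adipogenic progenitors), mesenchymal cells that lie between muscle fibres and make much of the collagen there. The set was chosen by gene symbol and function and comprised 10 of the 54100 genes in the deposited table: the lysyl hydroxylase genes Plod1, Plod2 and Plod3, the prolyl 4-hydroxylase alpha subunit genes P4ha1, P4ha2 and P4ha3, the prolyl 3-hydroxylase gene P3h1, the collagen chaperone genes Serpinh1 and Fkbp10, and the propeptide-processing enhancer gene Pcolce. Each symbol occurred on 1 row of the table. Bulk RNA was sequenced from Pdgfra+ cells of the plantaris, a calf muscle, of C57BL/6 mice, with 3 libraries labelled sham and 3 labelled overloaded. Each tube received 1000 sorted cells. The labels do not say how and for how long the load was applied, how old the mice were, or whether replicates are separate animals. The p-values therefore reflect spread among libraries that may be only technical.

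Collagen is modified while its chains are still in the endoplasmic reticulum (ER). Prolyl 4-hydroxylase, built from an alpha subunit and the beta subunit P4hb, hydroxylates prolines and so stabilises the triple helix, while a complex of P3h1, Crtap and Ppib hydroxylates single prolines at the 3 position. Lysyl hydroxylases prepare lysines for glycosylation and for the crosslinks that lysyl oxidases later form outside the cell. Serpinh1 (HSP47) binds the finished helix, Fkbp10 (FKBP65) is a prolyl isomerase of the ER, and Pcolce assists the protease Bmp1 in removing the C-terminal propeptide.

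Sham libraries held 500402 to 754456 counts and overloaded libraries 850857 to 1124210 (exact two-sided permutation p = 0.1, the smallest that 3 libraries against 3 can give). The 10 genes together took 0.143% to 0.158% of each sham library and 0.243% to 0.289% of each overloaded library. Levels are given as CPM, counts per 1000000 counts in tested genes with TMM scaling (a trimmed mean of the log ratios between libraries), and a value with ± is the mean and SD of 3 libraries. Receptor genes of the olfactory and vomeronasal organs, taken as a measure of background reads, made up 781 to 1819 CPM of the library total in sham and 232 to 1092 CPM in overloaded libraries, the overloaded high being library 2. Of the 8 genes used to recognise FAPs, all were tested, Col3a1 was higher, 4 were lower and Pdgfra was at 857 ± 143 and 594 ± 172 CPM (SD, n = 3 each, log2 fold change -0.53, edgeR adjusted p = 0.0624). Pdgfra, the sorting marker, was called lower in 7 of 18 alternatives, among them the fit with background reads as a covariate (log2 fold change -1.12, edgeR adjusted p = 0.00903). Markers of leukocytes summed to 15.8 to 24.9 CPM in sham and 1.92 to 20.1 CPM in overloaded libraries, with Adgre1 and Lyz2 at 0 everywhere. Satellite cell markers stood at 0 to 2.69 and 2.31 to 8.78 CPM with Myod1 at 0. Endothelial markers summed to 122 to 216 CPM in sham and 33.5 to 74.0 CPM in overloaded libraries. Tek held 233 of their 309 counts in sham and 74 of 155 with overload, and was the 1 called lower of 2 tested. The other tested, Flt1, was not called (log2 fold change -0.49, edgeR adjusted p = 0.778). The groups overlapped for Flt1 and for every untested endothelial marker. Muscle fibre markers summed to 45.7 to 89.2 and 11.6 to 35.1 CPM, with Ttn holding 82 of 109 and 50 of 59 counts. Pericyte and smooth muscle markers summed to 133 to 176 and 101 to 145 CPM. Tenocytes also make collagen. Their markers summed to 110 to 143 CPM in sham and 3365 to 4310 CPM in overloaded libraries, most of it Thbs4, and without that gene the sum was 25.6 to 29.0 CPM in sham and 29.8 to 55.5 CPM in overloaded libraries (exact permutation p = 0.1). The part of these markers and background reads in the results was not tested beyond the covariate fit given below. In bulk RNA, a change in the number of cells of a kind and a change in RNA per cell cannot be told apart.

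Of the 10 genes, 6 rose in overloaded FAPs and 0 fell (edgeR quasi-likelihood test, adjusted p under 0.05). Among all 7207 genes tested, 29.3% were called, with 15% of all tested called higher. The 6 were Plod2, Plod3, P4ha3, P3h1, Serpinh1 and Fkbp10, and for each the lowest overloaded library lay above the highest sham library, which held for 21.2% of the genes tested (41.5% with the groups apart in either direction). Plod1, P4ha1, P4ha2 and Pcolce were not called and their groups overlapped. P4ha3 entered the test through its overloaded libraries only, since no sham library reached the filter of 12.5 CPM, so counts that include it are descriptive. Without P4ha3, 5 of 9 rose and the median log2 fold change was 0.74, against -0.02 over all genes tested.

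**Figure D1:**
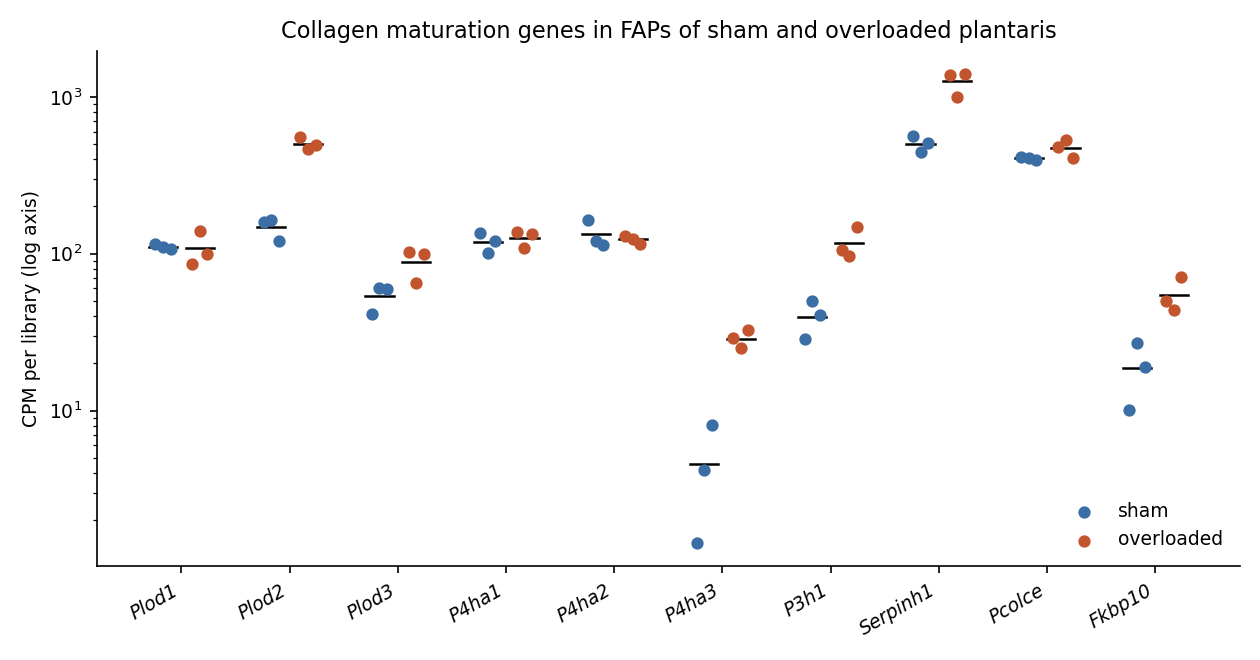
Levels of the 10 collagen maturation genes in each library, as CPM on a log axis, with sham libraries in blue, overloaded libraries in orange and the group mean as a black line (3 libraries per group). The groups are apart for Plod2, Plod3, P4ha3, P3h1, Serpinh1 and Fkbp10 and overlap for Plod1, P4ha1, P4ha2 and Pcolce.

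Of the lysyl hydroxylase genes, Plod2 rose, Plod3 rose by a margin that few alternatives kept, and Plod1 was not called. Plod2 (chromosome 9, 92542223 to 92608428, GRCm38), whose product acts on lysines of the collagen telopeptides, was at 159, 164 and 121 CPM in sham libraries 1 to 3 and at 557, 461 and 490 CPM in overloaded libraries 1 to 3. Every overloaded library exceeded every sham library by a wide margin. The rise was 3.41-fold, a log2 fold change of 1.77 with SE 0.21 (edgeR adjusted p = 2.04e-07), the lowest adjusted p of the 10 genes and rank 190 of 7207 by size of rise.

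Plod3 (chromosome 5, 136987019 to 136996648), which encodes the lysyl hydroxylase that can also add sugars to hydroxylysine, was at 41.5, 60.1 and 59.2 CPM in sham and 102, 65.2 and 99.5 CPM in overloaded libraries. Overloaded library 2 lay just above the sham libraries and the other two well above them. The log2 fold change was 0.74 (SE 0.27, edgeR adjusted p = 0.0400). This call was marginal: it was lost in 13 of 18 alternative analyses, among them DESeq2 (adjusted p = 0.08145), limma-voom (0.0507), the omission of any library except overloaded library 2 (0.0596 to 0.136), and the fit with background reads as a covariate (log2 fold change 0.31, edgeR adjusted p = 0.658).

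Plod1 (chromosome 4, 147909753 to 147936767), whose product hydroxylates lysines within the helix, was at 115, 110 and 108 CPM in sham and 85.6, 139 and 99.5 CPM in overloaded libraries. The sham libraries were close together, and overloaded library 2 lay above them while the other two lay below. The log2 fold change was -0.04 (SE 0.24, edgeR adjusted p = 0.925).

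Because a call for one gene and none for another does not show that they differ, 12 ratios of genes were taken within each library, which needs no scaling between libraries. The log2 ratios were compared by exact permutation, two-sided, with 0.5 count added to each gene, and with 3 libraries against 3 the smallest possible p is 0.1, which became 0.2 on Benjamini-Hochberg adjustment over the 12. There were 112.5 to 149 Plod2 counts per 100 Plod1 counts in sham libraries and 332 to 651 in overloaded libraries. The ratio was 3.57-fold higher with overload and the groups did not overlap (log2 difference 1.83, SE 0.31, exact permutation p = 0.1, adjusted 0.2). There were 205 to 383 Plod2 counts per 100 Plod3 counts in sham and 493 to 708 in overloaded libraries, again without overlap (log2 difference 1.06, SE 0.30, exact permutation p = 0.1, adjusted 0.2). A difference between Plod1 and Plod3 was not detected, their log2 ratio differing by -0.78 (SE 0.46, exact permutation p = 0.3, adjusted 0.4) with overlapping groups. Against its substrate, Plod2 stood at 2.41 to 3.85 counts per 100 Col1a1 counts in sham and at 3.69 to 5.01 in overloaded libraries (log2 difference 0.35, SE 0.25, exact permutation p = 0.2, adjusted 0.3).

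**Figure D2:**
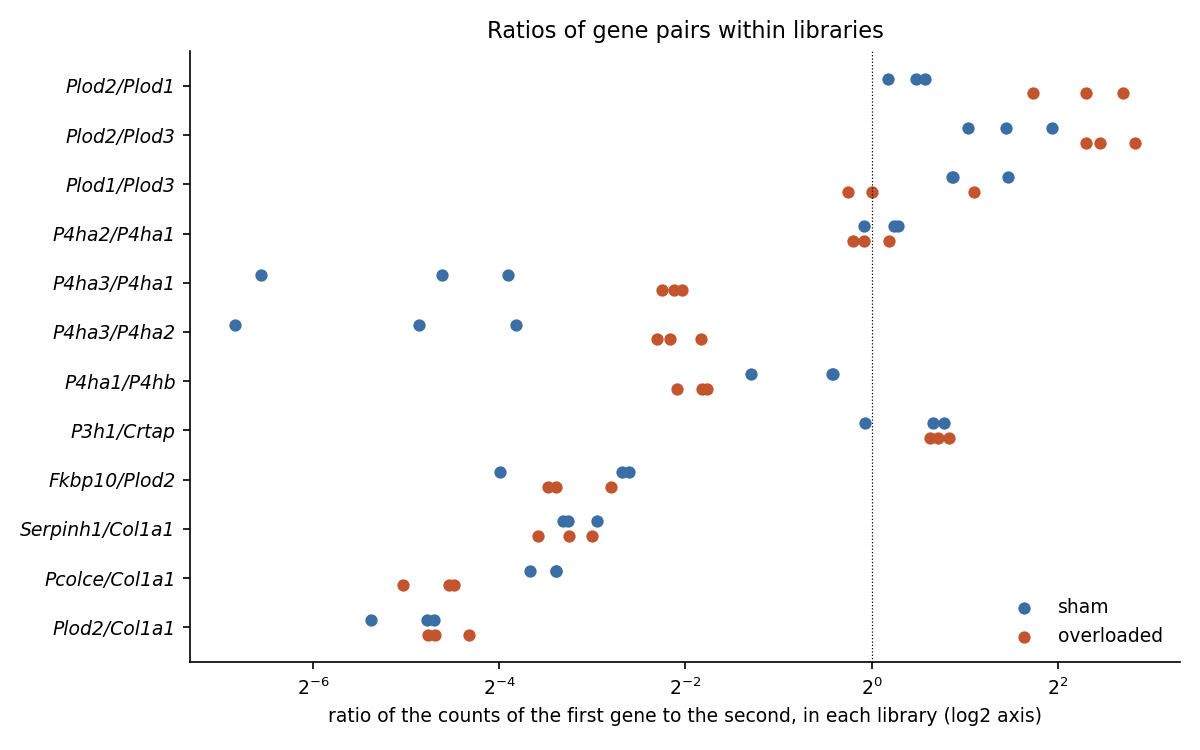
Counts of the first gene divided by counts of the second within each library, on a log2 axis, for 12 gene pairs (3 sham libraries in blue, 3 overloaded in orange, the dotted line marks a ratio of 1). The groups are apart for 6 pairs, higher with overload for Plod2 and P4ha3 over their paralogs and lower for P4ha1 over P4hb and Pcolce over Col1a1. Each of the 6 has exact permutation p = 0.1, adjusted 0.2, and pairs that share a gene are not separate results. The P4ha3 ratios rest on 1, 2 and 6 sham counts and are descriptive.

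Of the prolyl 4-hydroxylase alpha subunit genes, P4ha1 and P4ha2 were called neither by the main edgeR analysis nor by any of 18 alternatives, and P4ha3 was near the detection limit in sham. P4ha3 (chromosome 7, 100285520 to 100319699) had 1, 2 and 6 counts in sham libraries, or 1.43, 4.15 and 8.07 CPM, and 30, 20 and 28 counts in overloaded libraries, or 28.9, 25.1 and 32.4 CPM. Its overloaded libraries were alike, and its sham libraries differed widely at these low counts. The log2 fold change was 2.59 with SE 0.53 (edgeR adjusted p = 0.000351). Since the gene passed the filter through the overloaded libraries alone, that p is conditional on its high group. In the fit with no count filter the log2 fold change was 2.67, beside a median of -0.33 over the 28251 genes fitted. That fit rests on the same few sham counts and is no separate support. The size was uncertain, at 2.17 without sham replicate 1, 3.43 without sham replicate 3 and 2.23 with background reads as a covariate.

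P4ha1 (chromosome 10, 59323296 to 59373304), an alpha subunit gene active in many tissues, was at 135, 102 and 121 CPM in sham and 138, 109 and 133 CPM in overloaded libraries, a log2 fold change of 0.08 with SE 0.23 (edgeR adjusted p = 0.832). P4ha2 (chromosome 11, 54100095 to 54131665) was at 163, 120 and 114 CPM in sham and 130, 124 and 116 CPM in overloaded libraries, a log2 fold change of -0.11 with SE 0.23 (edgeR adjusted p = 0.778). For both genes the libraries of the groups were interleaved.

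P4ha3 counts were 1.06 to 6.67 per 100 P4ha1 counts in sham and 21.0 to 24.3 in overloaded libraries, a log2 difference of 2.58 (SE 0.66) that was 1.94 without sham replicate 1 and 3.03 without sham replicate 3. Per 100 P4ha2 counts there were 0.877 to 7.06 in sham and 20.2 to 28.0 in overloaded libraries (log2 difference 2.76, SE 0.76), with 2.05 and 3.32 on leaving out the same libraries. With 1, 2 and 6 sham counts, these ratios of P4ha3 are given as a description. The ratio of P4ha2 to P4ha1 overlapped between groups, at 94.4 to 121 per 100 in sham and 87.0 to 114 in overloaded libraries (log2 difference -0.18, SE 0.16, exact permutation p = 0.2, adjusted 0.3).

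The gene of the beta subunit rose. P4hb (chromosome 11, 120560298 to 120573253), which encodes a protein disulfide isomerase that also serves outside this enzyme, rose from 197 ± 46.0 to 476 ± 102 CPM (SD, n = 3 each), a log2 fold change of 1.29 with SE 0.22 (edgeR adjusted p = 5.01e-05). There were 40.8 to 75.0 P4ha1 counts per 100 P4hb counts in sham and 23.4 to 29.3 in overloaded libraries, with no overlap (log2 difference -1.19, SE 0.31, exact permutation p = 0.1, adjusted 0.2).

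Because the 3 alpha subunit genes gave unlike values, the 250 bases before each RefSeq start are shown, 5′ to 3′ on the gene's strand (GRCm38.p6). The windows are chr10:59323046-59323295 for P4ha1, chr11:54100674-54100923 for P4ha2 and chr7:100285270-100285519 for P4ha3, each on the plus strand. The P4ha2 window lies inside the gene as located above, since the GENCODE annotation starts that gene earlier, at 54100095. Capitals mark the letters ACGTG or GCGTG on either strand, the core of the hypoxia response element, which also lies within other motifs such as the E-box.
P4ha1: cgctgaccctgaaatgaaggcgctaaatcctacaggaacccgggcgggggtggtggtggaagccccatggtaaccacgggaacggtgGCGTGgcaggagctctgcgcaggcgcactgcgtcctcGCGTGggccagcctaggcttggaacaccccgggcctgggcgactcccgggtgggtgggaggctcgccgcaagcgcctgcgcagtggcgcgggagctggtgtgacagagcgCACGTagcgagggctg
P4ha2: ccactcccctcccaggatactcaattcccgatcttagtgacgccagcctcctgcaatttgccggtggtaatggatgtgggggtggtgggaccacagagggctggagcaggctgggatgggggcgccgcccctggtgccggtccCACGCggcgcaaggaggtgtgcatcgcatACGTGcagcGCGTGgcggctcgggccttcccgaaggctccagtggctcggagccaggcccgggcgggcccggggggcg
P4ha3: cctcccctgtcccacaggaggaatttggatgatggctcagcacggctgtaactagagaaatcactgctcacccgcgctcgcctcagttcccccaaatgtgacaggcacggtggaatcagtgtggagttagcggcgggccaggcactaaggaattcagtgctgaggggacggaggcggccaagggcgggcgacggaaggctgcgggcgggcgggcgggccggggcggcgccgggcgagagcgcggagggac
The P4ha1 and P4ha2 windows each held 1 ACGTG and 2 GCGTG, and the P4ha3 window held neither. A window was listed for 8 of the 10 genes, with 2 windows for P3h1, and not for Plod2 or Fkbp10. The Pcolce window and 1 of the 2 P3h1 windows also lie inside their genes as located here. Of the 9 windows, 8 held ACGTG or GCGTG, those of the uncalled Plod1, P4ha1, P4ha2 and Pcolce among them. The share was 38.6% in 32841 windows of the same length over all genes, which were not matched for base composition. The difference was not tested. The full ER stress response element, on either strand, was in 0 of the 9 and in 0.113% of all windows. GGAATG, the core bound by TEAD factors, was in 0 of the 9 and in 12.6% of all. These matches describe letters in a window, not binding.

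P3h1 (chromosome 4, 119232915 to 119248975), the catalytic subunit of the prolyl 3-hydroxylase complex, was at 28.6, 49.8 and 40.4 CPM in sham and 106, 96.6 and 148 CPM in overloaded libraries. All overloaded libraries lay well above the sham libraries, library 3 most. The rise was 2.99-fold, a log2 fold change of 1.58 with SE 0.28 (edgeR adjusted p = 6.68e-05). Crtap (chromosome 9, 114375134 to 114390675), its partner in the complex, rose from 28.2 ± 2.36 to 70.1 ± 11.4 CPM (SD, n = 3 each), a log2 fold change of 1.31 with SE 0.31 (edgeR adjusted p = 0.00144). With background reads as a covariate the log2 fold change of Crtap was 1.165 and not called (edgeR adjusted p = 0.0730). The ratio of P3h1 to Crtap overlapped between groups, at 95.2 to 171 per 100 in sham and 154 to 178 in overloaded libraries (log2 difference 0.27, SE 0.27, exact permutation p = 0.5, adjusted 0.6). Ppib, the cyclophilin of the complex, had few reads, 14 in sham (11 of them in library 2) against 43 with overload, and was not called (log2 fold change 1.02 with SE 0.70, edgeR adjusted p = 0.296). Without sham replicate 2 it was called, with a log2 fold change of 2.84 (edgeR adjusted p = 0.0174). Exons of Ppib overlap those of Snx22 on the other strand over 825 of 3305 bases.

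Both chaperone genes rose. Serpinh1 (chromosome 7, 99345376 to 99353239) was at 560, 446 and 505 CPM in sham and 1386, 993 and 1394 CPM in overloaded libraries. Overloaded library 2 was the lowest of its group and still well above each sham library. The rise was 2.50-fold, a log2 fold change of 1.32 with SE 0.20 (edgeR adjusted p = 1.00e-05). Its counts per 100 Col1a1 counts were 10.1 to 12.9 in sham and 8.34 to 12.5 in overloaded libraries, so a difference in rise between the chaperone and this collagen chain was not detected (log2 difference -0.11, SE 0.20, exact permutation p = 0.7, adjusted 0.764).

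Fkbp10 (chromosome 11, 100415697 to 100424824) had 7, 13 and 14 counts in sham libraries, or 10.02, 27.0 and 18.8 CPM, and 52, 35 and 61 counts in overloaded libraries, or 50.02, 43.9 and 70.6 CPM. The overloaded libraries all exceeded the sham libraries, which varied with a coefficient of variation of 45.5%. The rise was 3.03-fold, a log2 fold change of 1.60 with SE 0.37 (edgeR adjusted p = 0.00126). It was not called with background reads as a covariate (log2 fold change 1.282, edgeR adjusted p = 0.101). Its ratio to Plod2 overlapped between groups, at 6.31 to 16.5 per 100 in sham and 8.98 to 14.4 in overloaded libraries (log2 difference -0.18, SE 0.48, exact permutation p = 0.8, adjusted 0.8). Fkbp14, which encodes a related ER isomerase, rose from 162 ± 2.51 to 355 ± 9.99 CPM (SD, n = 3 each), a log2 fold change of 1.13 with SE 0.21 (edgeR adjusted p = 0.000102).

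Of the genes for propeptide removal, Pcolce and Bmp1 were not called and Pcolce2 fell. Pcolce (chromosome 5, 137605103 to 137613784) was at 415, 406.5 and 396 CPM in sham and 477, 530.5 and 405 CPM in overloaded libraries. The sham libraries were nearly equal, and overloaded library 3 fell within their range. The log2 fold change was 0.21 (SE 0.20, edgeR adjusted p = 0.453). Col1a1 (chromosome 11, 94936224 to 94953042), the main chain of type I collagen, rose from 4538 ± 415 to 12104 ± 1088 CPM (SD, n = 3 each), a log2 fold change of 1.42 with SE 0.19 (edgeR adjusted p = 1.17e-06). Pcolce counts per 100 Col1a1 counts were thus 7.89 to 9.57 in sham and 3.05 to 4.45 in overloaded libraries, 2.31-fold lower with no overlap (log2 difference -1.21, SE 0.20, exact permutation p = 0.1, adjusted 0.2). Pcolce2, its paralog, fell by 1.76 on the log2 scale (SE 0.28, edgeR adjusted p = 1.44e-05), from 131 ± 45.8 to 39.2 ± 8.004 CPM. Bmp1, the protease itself, was at 202 ± 28.5 and 159 ± 13.4 CPM (log2 fold change -0.34 with SE 0.22, edgeR adjusted p = 0.250).

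**Figure D3:**
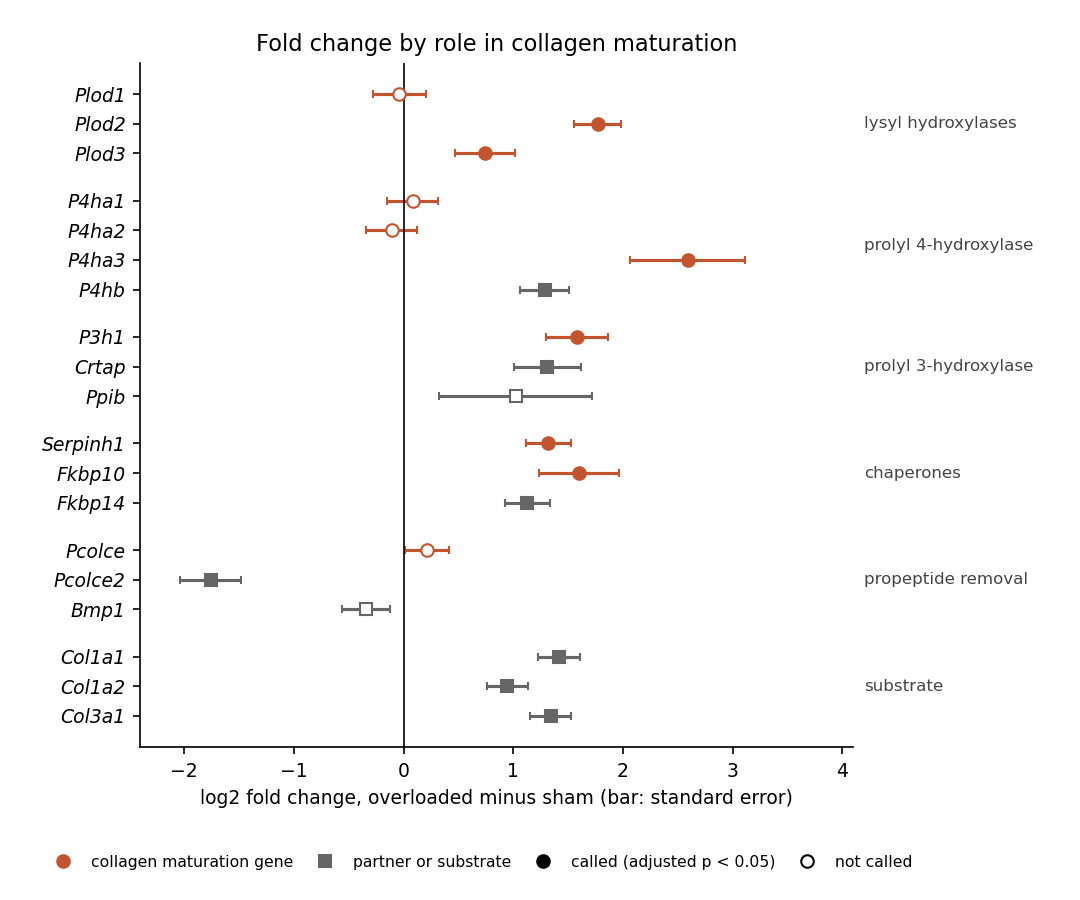
Log2 fold change of overloaded minus sham FAPs with its standard error, by role, for the 10 genes (circles) and their partners and substrates (squares), filled where the edgeR adjusted p is under 0.05. P4ha1, P4ha2, Plod1 and Pcolce lie near 0, Plod3 lies at 0.74, and Plod2, P4ha3, P3h1, Serpinh1 and Fkbp10 lie between 1.32 and 2.59. The highest, P4ha3, rests on 9 counts over the sham group.

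Within the overloaded group, library 2 was the lowest for 7 of the 10 genes and the highest for Plod1 and Pcolce, and it held the most background reads of that group, 1092 CPM against 308 and 232. In the sham group the low values were spread, with 4, 2 and 4 genes lowest in libraries 1 to 3. Without overloaded replicate 2 the log2 fold changes were 1.48 for Serpinh1, 1.72 for P3h1, 1.75 for Fkbp10, 1.85 for Plod2 and 0.94 for Plod3 (edgeR adjusted p = 0.0136 for Plod3). With background reads as a covariate 4 genes were higher, namely Plod2 (log2 fold change 1.79), P4ha3 (2.23), P3h1 (1.295) and Serpinh1 (0.99), and over all genes 488 were called higher in place of 1084.

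Exons of 4 of the 10 genes overlap those of another annotated gene, and without a stated strand setting reads of opposite strands cannot be told apart. For Plod2 the overlap is 346 of 5392 exonic bases with Gm38391 on the other strand, which had 11 counts in each group. Plod3 shares 529 of 4519 bases with Znhit1 on the other strand, with 17 counts over the sham group and 34 over the overloaded group, and 9 with Mir702. Fkbp10 shares 193 of 2935 bases with Nt5c3b on the other strand (25 and 29 counts), and Pcolce 112 of 3823 with Fbxo24 and 112 with Gm36266.

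Related genes were taken from 9 lists chosen by function, and the counts below stand beside 15% higher and 14.3% lower over all genes tested. Of 12 other genes of collagen hydroxylation and folding, 10 were tested, 4 rose and 1 fell, with a median log2 fold change of 0.79. Besides P4hb, Crtap and Fkbp14 the fourth was P3h4, named after its value was seen (log2 fold change 1.30 with SE 0.39, edgeR adjusted p = 0.0107), which encodes a further partner of prolyl 3-hydroxylases. Colgalt2, a collagen galactosyltransferase gene, fell from 88.5 ± 11.4 to 30.3 ± 12.7 CPM (log2 fold change -1.55 with SE 0.31, edgeR adjusted p = 0.000262), and was not called with the background covariate (log2 fold change -1.16). Its paralog Colgalt1 was at 43.6 ± 14.8 and 65.5 ± 9.68 CPM (log2 fold change 0.55 with SE 0.30, edgeR adjusted p = 0.168). Of 7 propeptide cleavage genes 3 were tested, 0 rose and 1, Pcolce2, fell. All 9 procollagen export genes were tested and 3 rose: Sec24d (log2 fold change 0.84), Sec23a (0.96) and Sar1a (0.61), all parts of the COPII coat that carries cargo out of the ER. The other 6 were not called, and the list median was 0.42. The Sar1a call was lost in 6 of 18 alternatives, among them leaving out sham replicate 2, sham replicate 3 or overloaded replicate 3 (edgeR adjusted p = 0.0693, 0.105 and 0.108). With the background covariate 0 of these 9 were called by edgeR, although Sec23a kept a log2 fold change of 0.96, with 0.59 for Sec24d and 0.49 for Sar1a.

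Most substrates and crosslinking oxidases tested rose. Of 11 fibrillar collagen chains 7 were tested and 5 rose, with a median log2 fold change of 0.94. On the log2 scale Col3a1 rose by 1.34 (SE 0.19), Col1a2 by 0.94 (SE 0.19) and Col5a2 by 1.43 (SE 0.20). Of the 5 lysyl oxidase genes, Loxl4 passed the filter through overloaded libraries alone, and the other 4 rose with a median log2 fold change of 1.43, among them Lox (3.96, SE 0.24), Loxl1 (1.31, SE 0.21) and Loxl2 (0.80, SE 0.19). Loxl4 had 12 counts in sham and 147 with overload, and its log2 fold change of 3.06 (SE 0.63) was 2.46 without sham replicate 1, 3.66 without sham replicate 2 and 1.94, not called, with the background covariate. With the background covariate 4 chains and 3 oxidases were called.

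Most general folding factors of the ER rose as well. Of 16 genes listed 14 were matched and tested, 12 rose and 0 fell, with a median log2 fold change of 1.04, beside 0.74 for the 9 collagen maturation genes without P4ha3. Pdia6 (log2 fold change 1.45) and Pdia3 (1.34) encode disulfide isomerases, Canx (1.35) the lectin chaperone calnexin, and Creld2 (1.62) a protein induced by ER stress. With the background covariate 8 of the 14 were called. Of 12 hypoxia-inducible genes 7 were tested. Pgk1, named for this reason alone, passed the filter through overloaded libraries only, and of the other 6 tested 4 rose and 1 fell. Over all 7 tested, 3 were higher and 1 lower under the covariate. Ldha (1.74), Slc2a1 (1.996) and Aldoa (1.11), all of glucose metabolism, rose, and Adm, which encodes the peptide adrenomedullin, fell by 1.19 on the log2 scale.

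**Figure D4:**
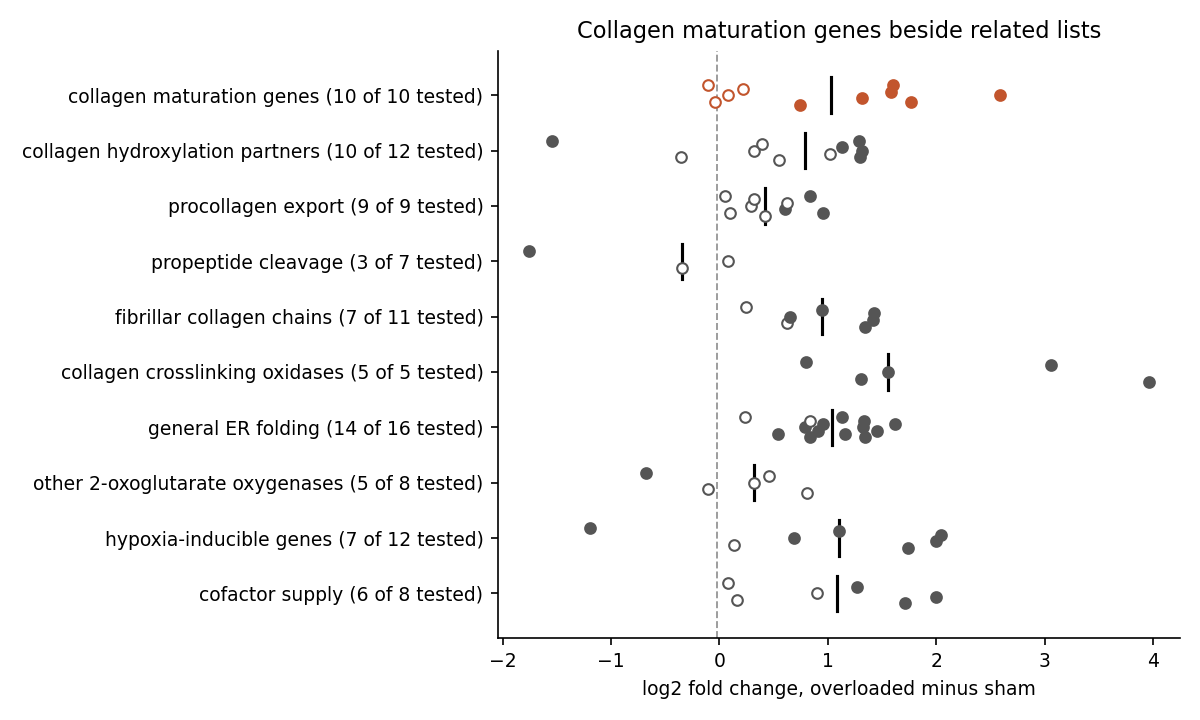
Log2 fold change of each tested gene, 1 row per list, with the 10 collagen maturation genes in orange and 9 related lists in grey, filled where called and open where not. Black bars are list medians and the dashed line is the median of all 7207 genes tested, -0.02.

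The genes most like Plod2 across the 6 libraries, outside every list and with a mean of at least 10 CPM, were Syncrip, Srprb and Nek7, with Pearson correlations of log2 CPM of 0.999, 0.997 and 0.997. The libraries fall into 2 groups, so these values largely follow the group difference and carry no test. The size of the change was not part of the measure: Srprb, a subunit of the signal recognition particle receptor, rose by 2.06 on the log2 scale (SE 0.27), Syncrip, an RNA-binding protein, by 0.84 (SE 0.22), and Nek7, a kinase, was not called (0.44, SE 0.22, edgeR adjusted p = 0.128).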

How the data were processed

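The authors deposited raw read counts per gene, whole numbers in 1 column per library. The submitters' processing notes name Trim Galore 0.6.6, HISAT2 2.2.1, featureCounts 2.0.1, DESeq2 1.28.1 and GRCm38. Annotation release, strand setting, handling of multimapping reads and collapsing of molecular identifiers were not given in the sources used here, and reads may not be independent molecules. The library protocol cited in the labels is of the CEL-Seq2 type, which reads transcripts near the 3′ end, and levels are not compared between genes.

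Genes passing filterByExpr (minimum count 10, minimum total 15) were fitted with edgeR 4.0.16 in R 4.3.3 (TMM scaling, robust quasi-likelihood F test, Benjamini-Hochberg over all 7207 genes). For edgeR fold changes, SE is the size of the log2 fold change divided by the square root of F. For ratios, it is the square root of the summed group variances of the log2 ratio, each divided by the number of libraries. Alternatives used limma 3.58.1, DESeq2 1.42.0 and other filters, scalings and designs (among them the share of olfactory and vomeronasal receptor reads as a covariate), 18 in all. All 54100 identifiers matched GENCODE M21 (GRCm38). Promoter windows are from RefSeq. A marker list is not reported here. Named were the 10 genes, up to 4 called genes of each list by adjusted p, P4hb, Crtap, Ppib, Colgalt1, Bmp1, Col1a1, Col1a2, Col3a1, Lox and Pdgfra, and 3 genes most like the top gene. The members, lists and alternatives were chosen with earlier results of these data known.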

Additional observations from a re-analysis of the deposited data

How the results depend on the processing

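The number of collagen maturation genes called higher was 6, and 4 to 6 over 18 alternatives, with 0 called lower in each. Leaving out 1 library gave 5 or 6. Plod2, P3h1 and Serpinh1 were called in all 18. P4ha3 was called in the 15 that tested it. Since it passed the main filter through its overloaded libraries alone, the counts that include it are descriptive. Fkbp10 was lost with the background covariate, and Plod3 in 13. With the covariate, 488 genes were higher and 381 lower over all genes, against 1084 and 1027, and over the related lists 21 were higher and 2 lower, against 36 and 4. The 36 include Loxl4 and Pgk1, which passed the filter through overloaded libraries alone. The cause of the smaller number of calls with the covariate was not tested. Leaving out 1 library gave 853 to 1073 higher and 742 to 960 lower genes.

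Uncalled values changed sign. The log2 fold change of Plod1 became 0.0398 with no count filter and 0.283 with the covariate, 0.0219 without sham replicate 1, 0.135 without overloaded replicate 1 and 0.0349 without overloaded replicate 3, the lowest value being -0.242 without overloaded replicate 2. P4ha1 became -0.137 with the covariate and ranged from -0.00687 to 0.217 with 1 library left out, and P4ha2 from -0.191 to 0.112. The cause was not tested.

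With the replicate number as a block, 5 collagen maturation genes were higher, since Plod3 reached an edgeR adjusted p of 0.05199, and 1043 genes were higher and 993 lower over all genes. Deviations of same-numbered libraries from their group means had correlations of 0.00822, 0.0144 and 0.0149, against -0.025 to 0.0112 for libraries of unlike number. Values this small do not show a pairing by number, and with 3 libraries a group they cannot exclude one. With 3 libraries a group no ratio can reach p under 0.1, and P4ha3, Ppib and Fkbp10 are limited by low counts in sham.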

Other observations

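The hydroxylases use iron, ascorbate and 2-oxoglutarate. Of 8 genes listed for cofactor supply, 6 were tested and 3 rose. The list also holds zinc transporter genes and none for 2-oxoglutarate. The 3 not called, named after their values were seen, were Slc23a2, Tfrc and Slc39a13. Their log2 fold changes were 0.08, 0.90 and 0.16 (edgeR adjusted p = 0.942, 0.089 and 0.796). Gsto1, whose product can reduce dehydroascorbate, was at 15.8, 27.0 and 25.6 CPM in sham and 62.5, 84.0 and 76.3 CPM in overloaded libraries (log2 fold change 1.71, SE 0.32, edgeR adjusted p = 0.000143). Slc11a2, an iron transporter gene, was at 15.8, 16.6 and 20.2 CPM in sham and 35.6, 50.2 and 42.8 CPM in overloaded libraries (log2 fold change 1.27, SE 0.36, edgeR adjusted p = 0.00739), and was just above the threshold with the background covariate (edgeR adjusted p = 0.0507). Slc2a1, the third that rose, carries glucose and dehydroascorbate and is also on the hypoxia list.

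Of 8 other genes for 2-oxoglutarate oxygenases, 5 were tested, 0 rose and 1 fell. Asph, which encodes an aspartyl hydroxylase of the ER, was at 88.8, 99.6 and 96.9 CPM in sham and 65.4, 62.7 and 49.7 CPM in overloaded libraries (log2 fold change -0.68, SE 0.25, edgeR adjusted p = 0.0422). It was called in 6 of 18 alternatives, with edgeR, DESeq2 or limma adjusted p from 0.0248 to 0.334. Exons of Asph overlap those of Clvs1 on the other strand over part of their length.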
